A study of Mus musculus with 3 samples.

Results

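The genes described here are those with which a cell displays peptides on major histocompatibility complex (MHC) class II molecules: H2-Aa, H2-Ab1, H2-Eb1, Cd74, Ciita, H2-DMa, H2-DMb1, H2-Oa and H2-Ob. They were chosen by their symbol, and all 9 were found among the 17250 genes of the deposited tables. For Ciita, which had 3 rows, the row with the highest mean level was used. The transcriptome of flushed bone marrow (BM) cells of male C57BL/6 mice aged 6-8 weeks was measured after 0, 3 and 5 days of LECT2 (called day 0, day 3 and day 5), in 1 library each. LECT2 (leukocyte cell-derived chemotaxin 2) is a secreted protein, given here as recombinant mouse protein made in Chinese hamster ovary cells and injected at 300 μg per kg body weight once a day. The library on day 0 carries no injection in its labels, and the number of mice in each library is not given in the sources used here. No difference between time points therefore has a replicate check, and the 3-day and 5-day comparisons share the library on day 0.

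MHC class II molecules are pairs of an alpha and a beta chain that carry peptides, mostly from proteins taken up from outside the cell, to CD4+ T cells. In the marrow they are a property of B-lineage cells, dendritic cells and some macrophages. The new pair is held by the invariant chain, which is cut down until a short fragment (CLIP) fills the groove. H2-DM exchanges this fragment for other peptides, and H2-O, found mainly in B cells, holds H2-DM back. The genes share a promoter module in which the factor RFX binds an X box and NF-Y binds a Y box, and Ciita, the class II transactivator, binds no DNA itself but is recruited to these factors. C57BL/6 mice lack a working gene for the alpha chain of the I-E molecule, so that I-A, made of the H2-Aa and H2-Ab1 chains, is the class II molecule they display.

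Promoter sequence from RefSeq (build GRCm38.p6, 250 bases before to 50 after the start) was found for 6 of the 9 genes, in 7 windows. The letters AGNAAC, the core of the X box, and CCAAT, the Y box, were searched for on both strands. The motifs do not overlap each other in the stretches shown. Of 32851 promoters in the table, 48.1% held AGNAAC, 37.4% held CCAAT, and 6.86% held both with starts at most 40 bases apart. Such a pair stood in the windows of 4 genes, H2-Eb1, H2-DMb1, H2-Oa and H2-Ob. The stretches below are shown for a presenting chain with the pair, for both genes of H2-O, and for H2-Aa, where the exact letters of the pair were not found. Capitals mark AGNAAC and ATTGG, which is CCAAT on the other strand, and all are read 5′ to 3′ towards the gene.
H2-Eb1: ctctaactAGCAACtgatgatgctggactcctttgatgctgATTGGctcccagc
H2-Ob: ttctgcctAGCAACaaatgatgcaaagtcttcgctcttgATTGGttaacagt
H2-Oa: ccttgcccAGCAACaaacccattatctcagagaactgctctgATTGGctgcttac
H2-Aa: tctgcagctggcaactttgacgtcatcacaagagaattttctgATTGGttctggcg
The H2-Eb1 stretch lies at chr17:34305767-34305820 and that of H2-Ob at chr17:34238809-34238860, both on the plus strand. The H2-Oa stretch lies at chr17:34092294-34092348 on the plus strand, and its last bases are in the first exon that GENCODE annotates. The H2-Aa stretch lies at chr17:34287859-34287914 on the minus strand, and its window held the Y box letters but not AGNAAC. Only exact letters were searched for, and this stretch holds ggcaac, which differs from AGNAAC by a letter. Whether it holds an X box was not tested. The X box core began 92, 88 and 77 bases before the start of H2-Eb1, H2-Ob and H2-Oa, and the Y box followed it by 33, 31 and 34 bases. In H2-DMb1 the spacing was also 34 bases, in a stretch that GENCODE places in the first exon. Neither of the 2 windows of H2-DMa held the pair. A match of letters is a description and not a bound site.

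Levels are given as RPKM, the reads on a gene scaled to its length in kilobases and to the reads on all genes of the library, so that genes of different length can be set side by side. The libraries held between 15146983 and 15523952 reads on genes. Changes are the log2 ratio of RPKM + 0.1, and each 95% interval is an exact (Clopper-Pearson) one for a ratio between read counts and covers counting error only. Together the 9 genes took 43511 reads on day 0, 30531 on day 3 and 29515 on day 5. These were 0.280% of the reads on day 0 (95% exact interval 0.278 to 0.283), 0.202% on day 3 (0.199 to 0.204) and 0.190% on day 5 (0.188 to 0.192). Cd74 alone held 53.0%, 55.1% and 53.9% of them.

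The class II genes did not move as 1 block. The chains that present peptide, the invariant chain and H2-Oa were lower in both LECT2 libraries. H2-DMa and H2-DMb1 were not lower on day 5 with the deposited values, though with TMM scaling, described below, they were at -0.04 and -0.25 on the log2 scale. H2-Ob was at -0.16 on day 5 in the deposited values, but at -0.46 with TMM scaling and -0.52 relative to genes of its length, which is explained below. Of the 9 genes, 8 had at least 1 RPKM, which leaves out Ciita with 7 reads or fewer, and none of the 8 differed by 2-fold or more in any comparison with the deposited values. Of these 8, 2 were at least 1.5-fold lower on day 3 (H2-Aa and H2-Ab1) and 3 on day 5 (H2-Aa, H2-Ab1 and H2-Oa). In the whole table, of the genes reaching 1 RPKM, 10.0% were lower by at least 1.5-fold on day 3 and 12.3% on day 5, whereas 16.4% and 34.5% were higher by as much. A change of at least 2-fold downwards was met by 2.41% on day 3 and 5.91% on day 5, and upwards by 4.08% and 15.5%. From day 3 to day 5, 3.45% of genes were at least 2-fold lower, 1.95% at least 2-fold higher, 6.86% at least 1.5-fold lower and 17.3% at least 1.5-fold higher, with none of the 8 among them.

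**Figure D1:**
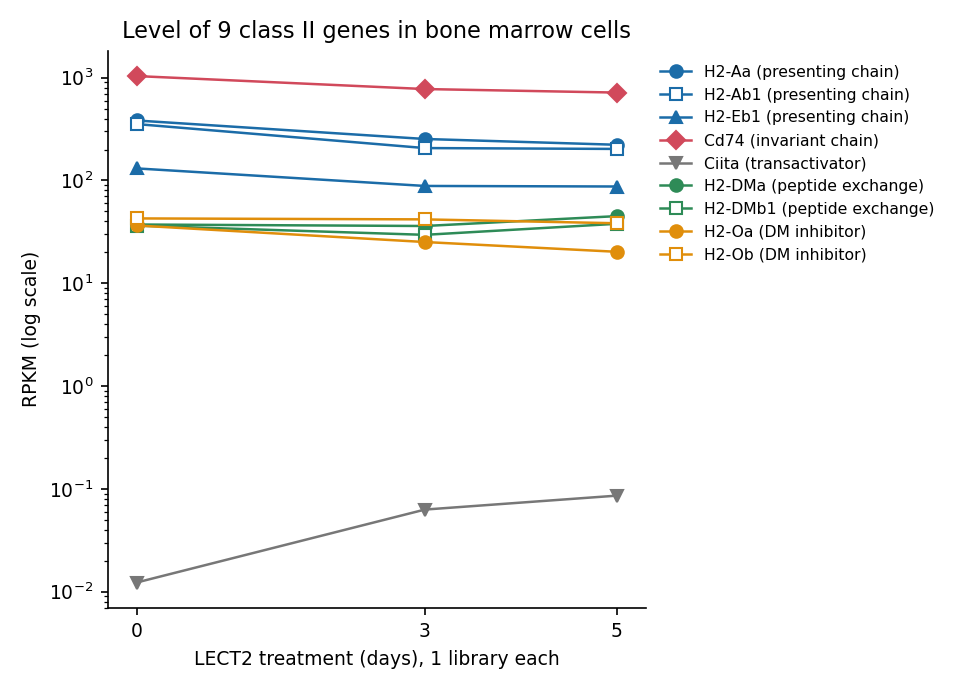
Level of each of the 9 genes in RPKM (log scale) against days of LECT2, with 1 library at each time point, so that there are no error bars. Cd74 runs from 1037 to 717 RPKM at the top, the chains H2-Aa, H2-Ab1 and H2-Eb1 lie below it, the H2-DM and H2-O genes start together between 36.4 and 42.8 RPKM, and Ciita lies below 0.1 RPKM.

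The median log2 ratio of the 9 genes was -0.42 on day 3 and -0.53 on day 5 against day 0. The median over all 11144 genes whose mean reached 1 RPKM was 0.10 and 0.31. TMM scaling, which brings the trimmed mean of all ratios to 0, removes most of this shift and lowers the ratios of the 8 genes other than Ciita with it. With TMM scaling the median of the 9 was -0.50 and -0.84. On day 5, 3 of the 9 were then at least 2-fold lower (H2-Aa, H2-Ab1 and H2-Oa), where 10.2% of all genes were, and 5 were at least 1.5-fold lower (with H2-Eb1 and Cd74), where 21.2% of all genes were. The ratios also moved with gene length. Among 1765 genes of a length in the same range as 7 of the 9 (1000 to 1700 bases), the median log2 ratio was -0.23 on day 3 (10th to 90th percentile -0.70 to 0.29) and -0.05 on day 5 (-0.86 to 0.64). Among 1681 genes of at least 5000 bases it was 0.51 and 0.79. Each ratio below is therefore followed, where it matters, by its value relative to genes of the same length, which is the log2 ratio minus a smoothed trend on length. Relative to genes of their length the median of the 9 was -0.19 on day 3 and -0.52 on day 5. With the median of all genes added back to these values it was -0.085 and -0.21.

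The alpha and beta chains of I-A came down together. H2-Aa, the I-A alpha chain, measured 383 RPKM (6453 reads) on day 0, 253 RPKM (4161 reads) on day 3 and 223 RPKM (3743 reads) on day 5. H2-Ab1, the I-A beta chain, measured 354 RPKM (6555 reads), 207 RPKM (3736 reads) and 203 RPKM (3753 reads). Both were highest on day 0, and in the deposited values most of the difference was there on day 3. The log2 ratio of H2-Ab1 was -0.78 on day 3 (95% interval -0.83 to -0.72) and -0.80 on day 5 (-0.86 to -0.75), and from day 3 to day 5 it was -0.03 (-0.09 to 0.04). That of H2-Aa was -0.60 on day 3 (-0.65 to -0.54) and from day 3 to day 5 a further -0.19 (-0.25 to -0.12), so that on day 5 it stood at 58.0% of the level on day 0. Relative to genes of their length, H2-Aa was at -0.26 and -0.60 and H2-Ab1 at -0.48 and -0.68.

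The ratio of both I-A chains within a library does not depend on how libraries are scaled. H2-Aa stood at 1.08 times the RPKM of H2-Ab1 on day 0, 1.23 times on day 3 and 1.10 times on day 5. The log2 ratio between the chains on day 5 differed from that on day 0 by 0.02 (95% interval -0.06 to 0.10), and on day 3 by 0.18 (0.10 to 0.26). These intervals are normal intervals on the log scale from 4 read counts and cover counting error only. The chains thus kept nearly the same ratio on day 5, and H2-Ab1 ran lower beside H2-Aa on day 3.

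H2-Eb1, the I-E beta chain, which has no alpha partner in this strain, is transcribed all the same. It measured 131 RPKM on day 0, 88.5 RPKM on day 3 and 87.4 RPKM on day 5, from 3397, 2237 and 2263 reads. Its log2 ratio was -0.57 on day 3 (-0.65 to -0.49), and on day 5 it was -0.58 (-0.66 to -0.51), at the edge of the 1.5-fold call. It missed that call with the pseudocount of 0.1 RPKM and would pass it with 0.01 RPKM, which would make 4 of the 8 at least 1.5-fold lower on day 5. The partner gene, listed as H2-Ea-ps, stayed at 0.073, 0.074 and 0.145 RPKM. The second I-E beta gene, H2-Eb2, was low throughout, at 1.62, 1.48 and 1.45 RPKM. An antisense gene overlaps H2-Eb1, and the library kit does not mark strand, so that its reads cannot be told apart from those of H2-Eb1.

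Cd74, the invariant chain that occupies the groove of new class II molecules, was the most abundant of the 9. It measured 1037 RPKM (23044 reads) on day 0, 776 RPKM (16812 reads) on day 3 and 717 RPKM (15912 reads) on day 5. On day 0 it lay at the 99.5th percentile of genes with reads. Its log2 ratio was -0.42 on day 3 (-0.45 to -0.39) and -0.53 on day 5 (-0.56 to -0.50), and -0.21 and -0.52 relative to genes of its length. The chains were lower relative to Cd74 too. The ratio of H2-Aa to Cd74 was 0.370 on day 0, 0.327 on day 3 and 0.311 on day 5, and that of H2-Ab1 to Cd74 was 0.341, 0.267 and 0.283. Relative to genes of their length, the ratio of H2-Aa to Cd74 changed by only -0.04 and -0.08 on the log2 scale, and that of H2-Ab1 by -0.27 and -0.16. For H2-Eb1 the ratio to Cd74 was 0.126, 0.114 and 0.122, and its difference on day 5, -0.05, had an interval (-0.13 to 0.03) that spans 0, while relative to genes of their length it changed by -0.23 and -0.13.

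**Figure D2:**
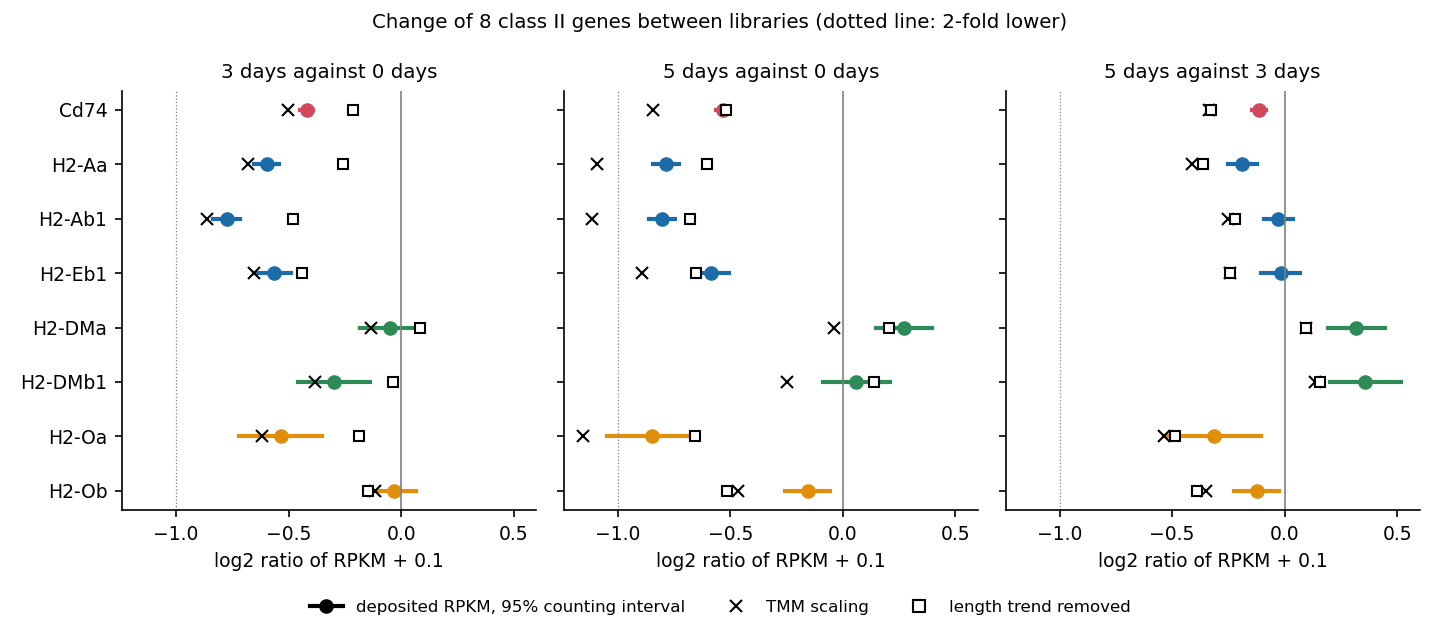
Log2 ratio of RPKM + 0.1 for 8 of the 9 genes in the 3 comparisons, with Ciita left out for lack of reads. Filled points are the deposited values with 95% counting intervals, crosses are TMM scaling, open squares are relative to genes of the same length, and the dotted line marks 2-fold lower. The presenting chains, Cd74 and H2-Oa lie left of 0 in the comparisons with day 0 by all 3 measures, while H2-DMa and H2-DMb1 lie at or right of 0 on day 5 in the deposited values and left of it with TMM scaling.

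H2-DM, which removes CLIP and edits the peptide, went another way. H2-DMa, its alpha chain, measured 37.3 RPKM (960 reads) on day 0, 36.1 RPKM (906 reads) on day 3 and 45.0 RPKM (1158 reads) on day 5. H2-DMb1, a beta chain, measured 36.4 RPKM (726 reads), 29.6 RPKM (576 reads) and 37.9 RPKM (756 reads). H2-DMa was highest on day 5, and H2-DMb1 was lowest on day 3 and back at its starting level on day 5. The log2 ratio of H2-DMa was -0.05 on day 3 (-0.18 to 0.08) and 0.27 on day 5 (0.15 to 0.40), and that of H2-DMb1 was -0.30 (-0.46 to -0.14) and 0.06 (-0.09 to 0.21). The sign on day 5 depended on scaling, since TMM scaling gave -0.04 for H2-DMa and -0.25 for H2-DMb1. Relative to genes of their length they were at 0.20 and 0.14. H2-DMb2, a second and very similar beta chain gene that may share reads with H2-DMb1, measured 20.6, 20.6 and 21.7 RPKM. H2-DMa overlaps Brd2 on the other strand, and Brd2 was higher in both LECT2 libraries, with log2 ratios of 0.35 and 0.69. The part of those reads in the level of H2-DMa was not tested.

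The genes of H2-O, the inhibitor of H2-DM, parted from each other in the deposited values. H2-Oa, its alpha chain, measured 36.5 RPKM (603 reads) on day 0, 25.2 RPKM (406 reads) on day 3 and 20.2 RPKM (334 reads) on day 5. H2-Ob, its beta chain, measured 42.8 RPKM (1772 reads), 41.8 RPKM (1692 reads) and 38.4 RPKM (1589 reads). H2-Oa thus ran lower at each later time, and H2-Ob stayed within a narrow range. The log2 ratio of H2-Oa was -0.53 on day 3 (-0.72 to -0.35) and -0.85 on day 5 (-1.05 to -0.66), the lowest of the 9 in the deposited values, while relative to genes of their length H2-Ab1 was lower. The percentile of H2-Oa among genes with reads was 86.4 on day 0, 80.7 on day 3 and 73.9 on day 5. BC051537, an antisense gene, overlaps H2-Oa. The log2 ratio of H2-Ob was -0.03 (-0.13 to 0.07) and -0.16 (-0.26 to -0.06). H2-Ob is the longer gene, 2670 bases against 1064, and the gap closed relative to genes of their length. On that scale H2-Oa was at -0.19 and -0.66 and H2-Ob at -0.15 and -0.52, and their ratio to each other changed by -0.04 and -0.14.

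Set against H2-DMa in the same library, both H2-O genes were lower on day 5. The part of reads from Brd2, which overlaps H2-DMa, in this reference was not tested. The ratio of H2-Oa to H2-DMa was 0.979 on day 0, 0.698 on day 3 and 0.449 on day 5. On the log2 scale this was a difference of -0.49 on day 3 (95% interval -0.71 to -0.26) and -1.12 on day 5 (-1.35 to -0.89), and -0.27 and -0.86 relative to genes of their length. The ratio of H2-Ob to H2-DMa was 1.15, 1.16 and 0.852, with a difference of -0.43 on day 5 (-0.59 to -0.27), and of -0.23 on day 3 and -0.72 on day 5 relative to genes of their length. The ratio of Cd74 to H2-DMa was 27.8, 21.5 and 15.9, with a difference of -0.80 on day 5 (-0.93 to -0.68). The ratio of H2-DMb1 to H2-DMa was 0.976, 0.820 and 0.842, with a difference of -0.25 on day 3 (-0.46 to -0.05) and -0.21 on day 5 (-0.40 to -0.02). On day 5 this was smaller than the differences of H2-Oa, H2-Ob and Cd74. On day 3 that of H2-Ob was smaller, at 0.02 (-0.15 to 0.18).

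**Figure D3:**
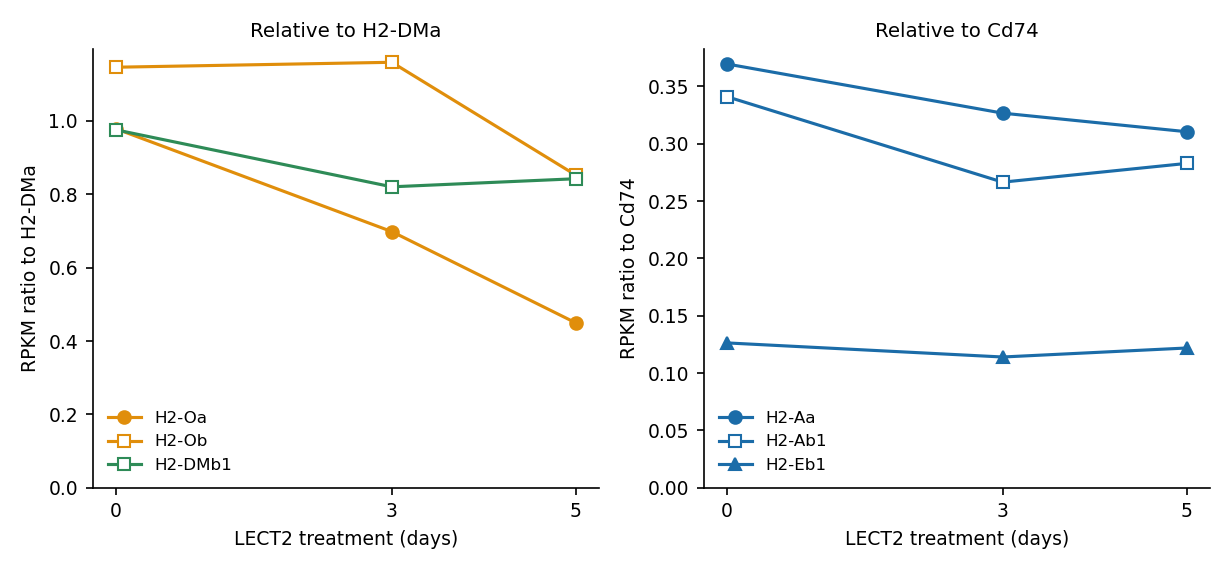
Ratio of RPKM within each library against days of LECT2, on the left of H2-Oa, H2-Ob and H2-DMb1 to H2-DMa, and on the right of the chains H2-Aa, H2-Ab1 and H2-Eb1 to Cd74. Each point is 1 library, both axes start at 0, and the widest drop is that of H2-Oa to H2-DMa, from 0.979 to 0.449.

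Ciita had almost no reads. Its best row, of 5254 bases, held 1 read on day 0, 5 on day 3 and 7 on day 5, or 0.012, 0.063 and 0.086 RPKM. With 1 read on day 0 the log2 ratio of the counts on day 5, 2.81, had an interval of -0.15 to 8.30, so that no difference was detectable at this depth. Ciita was 1 of 232 symbols with several rows, and such symbols had a median summed level of 0.445 RPKM against 4.35 RPKM for the 17018 symbols with 1 row. Of these symbols, 9.91% reached 5 RPKM against 48.0% of those with 1 row. Whether the division into rows bears on the level of Ciita was not tested. The low level is therefore that of these rows and may not be that of the gene.

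Of the 9 genes, 7 lie on chromosome 17 in the class II stretch, which in GENCODE M21 (GRCm38) runs from the start of H2-Oa at 34092340 to the end of H2-Eb1 at 34316674. The stretch holds 20 annotated genes, of which 13 have a row in the tables. The 6 others there include 4 genes of the class I pathway, which cut and carry peptides for another set of MHC molecules. Psmb8 and Psmb9, subunits of the immunoproteasome, measured 114, 87.7 and 117 RPKM and 79.8, 58.2 and 61.9 RPKM. Tap1 and Tap2, the peptide transporter, measured 59.2, 52.6 and 63.2 RPKM and 58.5, 46.3 and 45.0 RPKM. Their log2 ratios on day 5 lay between -0.38 and 0.10. The H2-Aa, H2-Ab1 and H2-Eb1 end of the stretch was lower than these 4 neighbours in both comparisons. Relative to genes of their length the gap was not kept for all of them, since Tap2 was at -0.42 on day 3 and -0.70 on day 5. Tapbp, which holds class I molecules to the transporter and lies outside the stretch, measured 123, 106 and 106 RPKM. Of these 5 class I genes, 0 of 5 were at least 1.5-fold higher or lower in either comparison with day 0 in the deposited values, and with TMM scaling 2 of 5 were at least 1.5-fold lower on day 5, Psmb9 at -0.67 and Tap2 at -0.69.

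**Figure D4:**
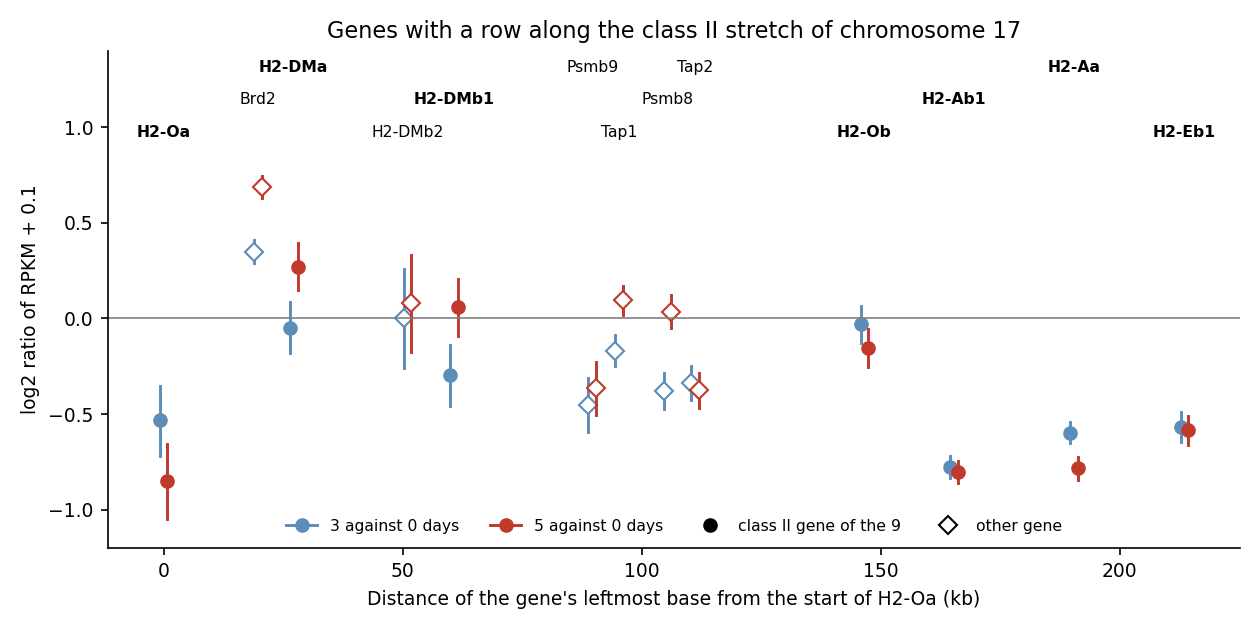
Log2 ratio of RPKM + 0.1 for the 13 genes with a row along the class II stretch of chromosome 17, against the distance in kb from the start of H2-Oa. Filled circles are genes of the 9, open diamonds the others, blue day 3 and red day 5 against day 0, moved slightly sideways to be seen apart, and the bars are 95% counting intervals. H2-Oa at one end and H2-Ab1, H2-Aa and H2-Eb1 at the other lie lowest, with values near or above 0 between them on day 5 for H2-DMa, H2-DMb1, Tap1 and Psmb8.

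Other genes of the class II pathway lay nearer to the median of all genes. Of 20 such genes, 19 had a mean of at least 1 RPKM, and their median log2 ratio was 0.00 on day 3 and 0.23 on day 5, or -0.01 and -0.23 relative to genes of their length and -0.08 on day 5 with TMM scaling. On day 5, 2 of the 19 were at least 2-fold lower and none at least 2-fold higher. Cd83, which keeps class II molecules at the cell surface, fell from 43.7 RPKM on day 0 to 21.9 RPKM on day 3 and 5.90 RPKM on day 5, a log2 ratio of -2.87 on day 5. Ctsl, the protease cathepsin L, fell from 42.8 to 26.1 and 20.7 RPKM, a log2 ratio of -1.04 on day 5.

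None of the factors that bind the shared promoter module was at least 1.5-fold lower on day 5. Rfx5, Rfxap and Rfxank, the subunits of RFX, measured 9.95, 7.34 and 7.38 RPKM on day 0 and 13.2, 7.29 and 9.19 RPKM on day 5. Nfya, Nfyb and Nfyc, the subunits of NF-Y, measured 25.8, 23.6 and 31.3 RPKM on day 0 and 43.0, 25.2 and 36.6 RPKM on day 5. Creb1, which binds beside the X box, measured 14.8 and 21.3 RPKM. Nfya alone of these was at least 1.5-fold higher on day 5, with a log2 ratio of 0.74, but not with TMM scaling (0.43) or relative to genes of its length (0.19).

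Of the enzymes that act on the invariant chain and on antigen, Ifi30, a thiol reductase of the endosome, was at 190, 229 and 343 RPKM, at least 1.5-fold higher on day 5 with a log2 ratio of 0.85, or 0.54 with TMM scaling, below that threshold, and 1.09 relative to genes of its length. Sppl2a, which cuts the last fragment of the invariant chain from the membrane, was at 17.6, 26.0 and 27.9 RPKM, with a log2 ratio of 0.66 on day 5, which was -0.06 relative to genes of its length. Ctsb and Lgmn, further endosomal proteases, had log2 ratios of 0.17 and -0.03 on day 5, and Ctsd had -0.42. With TMM scaling Ctsb, Lgmn and Ctsd were at -0.14, -0.34 and -0.73, and relative to genes of their length at -0.47, -0.17 and -0.59. Ctss, the protease best known for cutting the invariant chain, was listed at 3.71, 3.65 and 6.24 RPKM, and like Ciita it has several rows. Its log2 ratio was 0.74 on day 5 (0.34 to 1.17), or 0.43 with TMM scaling. March1 and March8, ubiquitin ligases that take class II molecules from the surface, had log2 ratios of 0.89 and 0.34 on day 3 and 0.50 and 0.33 on day 5. On day 5 they were at -0.11 and -0.29 relative to genes of their length.

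Among 15 genes known to raise or lower class II expression, 4 were lower by 2-fold or more on day 5 and 1 was higher by as much, and their median log2 ratio was 0.16, which turned to -0.15 with TMM scaling and -0.46 relative to genes of their length. Those with the highest levels were Sfpi1, the factor PU.1, at 193, 247 and 215 RPKM, Irf8 at 111, 113 and 172 RPKM, and Ifngr1, a chain of the interferon-gamma receptor, at 80.0, 80.6 and 98.1 RPKM. In the whole table, 5.91% of genes were at least 2-fold lower on day 5 and 15.5% at least 2-fold higher. The 4 that fell were Ifng, Irf1, Il4 and Il10, and the 1 that rose was Jak2, all named here after their values were seen. Il4 and Il10 were near the floor on day 5, at 0.723 RPKM (7 reads) and 0.395 RPKM (8 reads). Jak2, at 1.01 on the log2 scale, did not reach 2-fold with TMM scaling (0.70) or relative to genes of its length (0.35). Ifng, interferon-gamma, the best known inducer of Ciita outside B cells, was at 6.35, 1.97 and 1.66 RPKM. Irf1, which carries that signal to the Ciita gene, was at 91.3, 68.3 and 42.5 RPKM. Of 7 costimulators and related ligands, 6 had a mean of at least 1 RPKM and none was at least 2-fold higher or lower in the deposited values. With TMM scaling 2 of the 6 were at least 2-fold lower on day 5, Cd80 at -1.05 and Cd274 at -1.23. The most abundant, Icam1, Icosl and Cd274, had log2 ratios of -0.37, 0.46 and -0.92 on day 5.

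In a mixed marrow sample, fewer cells of a type and less RNA per cell cannot be told apart, so the levels of cell type markers stand here beside those of the class II genes. Of 16 B-cell markers, 15 had a mean of at least 1 RPKM, with a median log2 ratio of -0.02 on day 3 and -0.23 on day 5, or -0.54 on day 5 with TMM scaling and -0.39 relative to genes of their length, and their summed level was 3023, 2523 and 2202 RPKM. The most abundant, Cd79a and Cd79b of the B-cell receptor and Cd37, had log2 ratios of -0.64, -0.49 and -0.47 on day 5. Of the 15, 6 were above 0 and 9 below on day 3, and 3 were above and 12 below on day 5. The 3 above 0 on day 5 were Cd22 (0.45), Blnk (0.36) and Cr2 (0.28), named after their values were seen. Relative to genes of their length, 14 of the 15 were below 0 on day 5. Cd74 stood at 1.25 times the RPKM of Cd79a on day 0, 1.26 times on day 3 and 1.35 times on day 5. The log2 difference was 0.01 on day 3 (95% interval -0.03 to 0.06) and 0.10 on day 5 (0.06 to 0.15), an interval that leaves out 0. Relative to genes of their length, the ratio of Cd74 to Cd79a changed by -0.03 and 0.06. Cd74 thus moved alongside Cd79a to within those values, but its log2 ratios of -0.42 and -0.53 lay below the median of the B-cell markers. The part of B cells in its level was not tested.

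Plasmacytoid dendritic cell markers were lower in 7 of 7 genes at both times, with a median log2 ratio of -0.75 and -0.52, and on day 5 of -0.83 with TMM scaling and -0.86 relative to genes of their length. Their most abundant genes, Bst2, Siglech and Tcf4, measured 174, 52.3 and 44.2 RPKM on day 0 and 73.9, 39.2 and 30.8 RPKM on day 5. Of 10 conventional dendritic cell markers, 8 had a mean of at least 1 RPKM, with a median of -0.42 and -0.29, and on day 5 of -0.59 with TMM scaling. The most abundant were Ccr7, which fell from 66.5 to 12.8 RPKM on day 5, Flt3 at 14.5 and 13.6 RPKM, and Clec10a at 13.1 and 10.8 RPKM. On day 5, 6 of the 8 were below 0 and 2 above, the highest at 0.62. The defining marker Zbtb46 was below 1 RPKM in each library, at 0.650, 0.461 and 0.725. The part of dendritic cells in the class II levels was not tested.

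Macrophage and monocyte markers were, at the median, higher in both LECT2 libraries. Over 13 macrophage markers the median log2 ratio was 0.61 on day 3 and 0.84 on day 5, or 0.36 and 0.28 relative to genes of their length and 0.53 on day 5 with TMM scaling. The most abundant were Cd68, which rose from 56.1 to 136 RPKM on day 5, Csf1r, which rose from 26.7 to 85.3 RPKM, and the complement gene C1qa, at 62.4 and 54.4 RPKM. Over 8 monocyte markers the median was 0.72 and 1.51, with 6 of 8 at least 2-fold higher on day 5. Their most abundant genes, Ly6c2, F13a1 and Ms4a6c, measured 932, 72.0 and 85.9 RPKM on day 0 and 1138, 365 and 222 RPKM on day 5. Markers of late neutrophils were at least 2-fold lower on day 5 in 10 of the 10 with at least 1 RPKM, with a median of -1.84, and these are among the most abundant genes of the libraries. Markers of pro-B and pre-B cells had a median of -0.47 and -0.25, T cells of -0.79 and -0.68, and erythroid cells of -0.29 and -0.30. These were, relative to genes of their length, -0.02 and 0.10 for pro-B and pre-B cells, 0.14 and -0.43 for erythroid cells, and -0.77 and -0.67 for T cells. With TMM scaling the day 5 medians were -0.56, -0.61 and -0.98 in the same order. Late neutrophils, at -0.19 on day 3, turned to 0.14 relative to length. The most abundant markers of pro-B and pre-B cells, Vpreb3, Igll1 and Dntt, measured 362, 139 and 63.0 RPKM on day 0 and 269, 118 and 52.2 RPKM on day 5. Of the same 6 markers, 2 went the other way and were at least 2-fold higher on day 5, Rag1 with log2 ratios of 1.24 and 1.21 and Rag2 with 0.63 and 1.19, named after their values were seen. On day 5 neither reached 2-fold with TMM scaling (0.90 and 0.88) or relative to length (0.42 and 0.69). The most abundant T-cell markers, Cd2, Cd4 and Lck, had log2 ratios of -0.73, -0.40 and -0.62 on day 3 and -0.77, -0.07 and -0.19 on day 5.

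**Figure D5:**
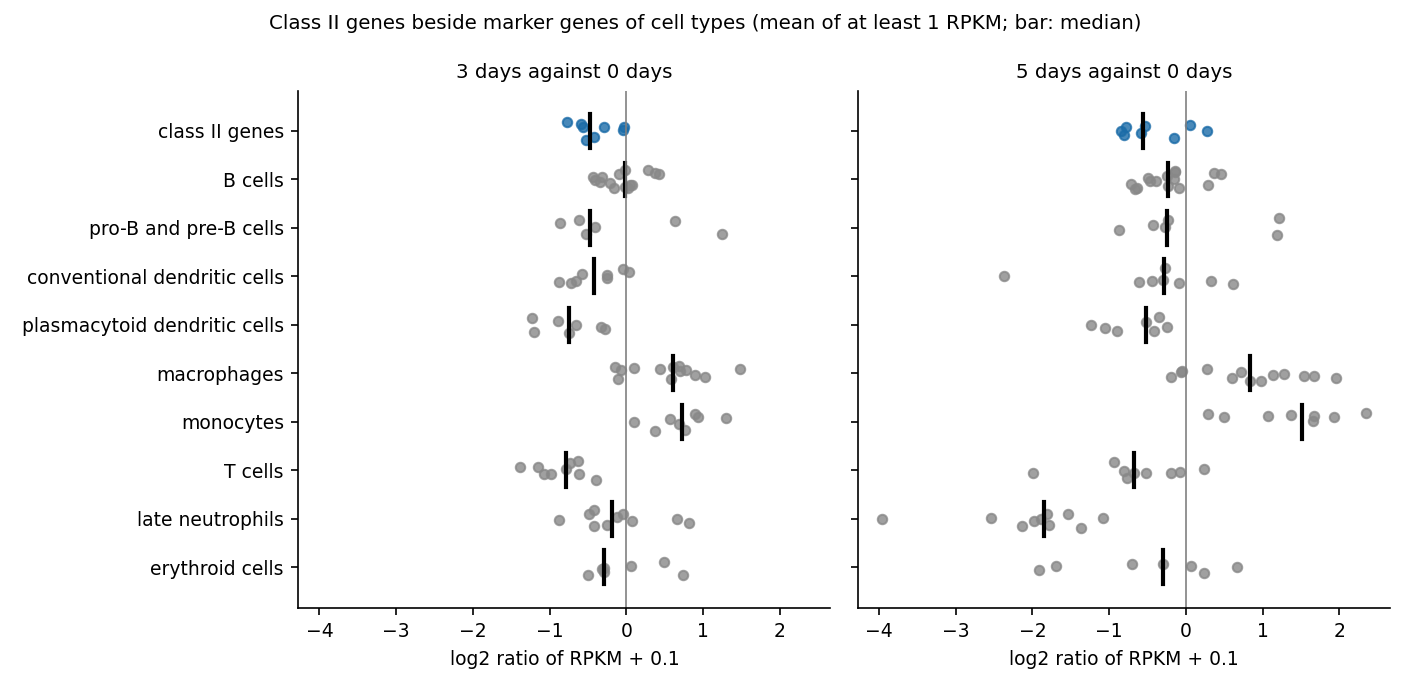
Log2 ratio of RPKM + 0.1 against day 0 for 8 class II genes (blue) and for markers of 9 cell types (grey), where the mean reached 1 RPKM, with the median of each as a black bar. Points are genes, spread upwards and downwards only to be seen. The class II genes run from -0.78 to -0.03 on day 3 and from -0.85 to 0.27 on day 5, while in these deposited values the medians of the monocyte and macrophage markers lie above 0 and those of the other 7 lists below it.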

How the data were processed

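Flushed BM cells were sequenced with the Illumina TruSeq RNA kit, and Cufflinks is named for quantitation. The aligner is not given in the sources used here, and per the labels a build, mm8, appears in the submitters' processing notes with no role stated. The authors deposited, for each pair of time points, read counts and RPKM per gene. The RPKM that the authors deposited are the counts divided by gene length and by all reads on genes. Genes without reads are listed at 0.01 RPKM and were set to 0. The authors' columns of log2 ratio, p-value and false discovery rate were not used.

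For each of 17250 symbols, 1 row was kept, that of the highest mean RPKM (17559 rows, 17 named from RefSeq by gene ID). On day 0, 1 read per 1000 bases was worth 0.0644 RPKM. Ratios used a pseudocount of 0.1 RPKM, which understates changes of low genes. Changes of 2-fold or 1.5-fold were counted over genes reaching 1 RPKM in one of the compared libraries. No p-value was computed, as each time point is 1 library. Reads were not tied to molecules by identifiers and can be PCR copies, so intervals cover counting error only. Scaling factors came from edgeR 4.0.16 (TMM) and DESeq2 1.42.0 (median of ratios), and the trend on length from statsmodels 0.14.6 (lowess, span 0.3). The trend could be removed with or without adding back the median of all genes. The version with the median added back was computed first. The version without it was taken for the text after the values of the first had been seen, so both are given. Positions are those of GENCODE M21 (GRCm38), and the deposited tables hold none. Computation used Python 3.11.15, pandas 2.3.3, numpy 2.4.6, scipy 1.17.1 and R 4.3.3, and was checked on simulated counts.

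All 9 class II genes are named. Of the other lists, except late neutrophils and erythroid cells, the 3 genes with the highest mean RPKM are named, with all class II pathway and class I genes with at least 1 RPKM, and Zbtb46 and overlapping genes as a defining marker or neighbours. A comparison with 1 further marker is not reported here. Others are said to be chosen after their values were seen. The class II genes and all lists were chosen with earlier results of these data known.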

Additional observations from a re-analysis of the deposited data

How the results depend on the processing

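The median of the 9 genes stayed below 0 in each comparison under all alternatives run, except for 0.0052 from day 3 to day 5 with the length trend removed and the median of all genes added back. On day 3 (-0.42) it was -0.50 with TMM scaling, -0.50 with median-of-ratios scaling, -0.52 with scaling on the reads outside the 100 most abundant genes, -0.19 relative to genes of the same length, -0.085 with the median of all genes added back, and -0.48 without Ciita. On day 5 (-0.53) the same scalings gave -0.84, -0.83 and -0.73, and adding back the median after removing the length trend gave -0.21. From day 3 to day 5 (-0.03) they gave -0.25, -0.25 and -0.13, and -0.24 relative to length. The omission of Ciita was chosen after seeing the data. Which version of the length trend to use in the text, with or without the median added back, was also decided after values were seen. No gene was at least 2-fold lower with the deposited values and a pseudocount of 0.1. A 1.5-fold threshold gave 2 on day 3 and 3 on day 5, and on day 5 TMM gave 3, median-of-ratios 3 and scaling outside the 100 most abundant genes 2. With the length trend removed, with or without the median added back, 0 were at least 2-fold lower. Pseudocounts of 1 and 0.01 RPKM and the sum of all rows moved no gene beyond its counting interval. The signs of H2-DMa and H2-DMb1 on day 5 changed with TMM and median-of-ratios scaling, and that of H2-DMb1 with the scaling outside the 100 most abundant genes. On day 3 the sign of H2-DMa changed with the length trend removed, and that of H2-DMb1 too with the median added back. From day 3 to day 5 the sign of Ciita changed with the length trend removed, and those of H2-Ab1 and H2-Eb1 with the median added back. No paired analysis was possible because each time point has 1 library and the labels carry no replicate numbers. The cause of the trend on length was not tested.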

Other observations

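The genes outside the lists whose pair of log2 ratios (day 3 and day 5 against day 0) lay closest to the median of the 9 class II genes were Rbm39, Tmem50a, Nfu1, Mettl17 and Ephx1. The measure was the straight-line distance in the plane of both ratios, over 3 libraries and 8073 genes whose mean reached 5 RPKM. Rbm39, a splicing factor, measured 221 RPKM on day 0, 165 RPKM on day 3 and 153 RPKM on day 5. Tmem50a measured 183, 137 and 126 RPKM, and Nfu1, an iron-sulphur cluster scaffold of mitochondria, 84.3, 62.5 and 58.7 RPKM. Cd74 was the median gene at both times, so this point is the course of Cd74 and not of the 9 genes as a block. Within a distance of 0.2 on the log2 scale lay 295 genes, or 3.65% of the 8073. This course over 3 libraries is thus not particular to Cd74.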
